A study of Mus musculus with 6 samples.

Results

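The 9 genes described here, Ly6c2, Ccr2, Plac8, Gda, F13a1, Vcan, Ccr1, Cxcr4 and Ccrl2, are used to recognise blood monocytes and their recent descendants or take part in their traffic. They were chosen by hand with earlier results of these data known, namely their log2 signals in the same 6 samples, and each was read from a probe set that carries exactly 1 gene symbol. All 9 of 9 were on the array, each on a single probe set, among 22180 genes in all. All 9 also passed the filter on dim signal, as did 15529 of the 22180 genes. The mean signal over the 6 samples, which decides between probe sets of a gene, had therefore nothing to decide for them. Because the list was made with results in view, the differences between subsets given below describe these genes and are no independent evidence about them.

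The samples were macrophages sorted by flow cytometry from digested ear skin of C57Bl/6 mice aged 2 weeks. Every mouse carried the genotype Cx3cr1+/gfp, in which a single copy of the fractalkine receptor gene Cx3cr1 is replaced by the gene of green fluorescent protein, so that fluorescence reports the activity of the gene and no subset had an intact pair of copies. The 3 subsets were CX3CR1high (called bright in the sample titles), CX3CR1int (intermediate) and CX3CR1low cells, with 2 samples each. Each sample was a pool of 4 mice and the replicates came from independent litters.

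Classical monocytes of the mouse leave the bone marrow with a high level of the surface antigen Ly6C and of the chemokine receptor CCR2, and lose Ly6C as they turn into macrophages in tissue. Dermal macrophages are a mixture of cells present from before birth and cells renewed from such monocytes. Patrolling monocytes, in contrast, carry little Ly6C and much CX3CR1.

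The identity of the sorted cells was read from marker lists. Adgre1, Csf1r and Cd68 were among the 9 macrophage markers on the array. The mean log2 signal of the 9 was 10.31 and 10.36 in CX3CR1high, 10.20 and 10.60 in CX3CR1int, and 10.56 and 10.45 in CX3CR1low samples. None was called between subsets, and 0 had an unadjusted p below 0.05 in limma. All 9 were lower in CX3CR1high than in CX3CR1low cells (median -0.14). Against CX3CR1int cells 7 were lower and 2 higher (median -0.105). Cx3cr1 followed the sort at its upper end, with 10.55 and 9.51 in CX3CR1high, 7.05 and 6.84 in CX3CR1int, and 5.87 and 7.01 in CX3CR1low samples. Of 9 neutrophil markers, Ly6g, Camp, Ngp and Retnlg lay under the dim level of 4.335, the 30th percentile of mean signal over all genes, in all 6 samples. The other 5, S100a8, S100a9, Cxcr2, Mpo and Elane, were tested, and limma called none in any comparison, with 1, 0 and 0 at an unadjusted p below 0.05 for CX3CR1high against CX3CR1low, CX3CR1high against CX3CR1int, and CX3CR1int against CX3CR1low cells. S100a8, which monocytes also make and which was singled out after its values were seen, was at 4.43 and 4.80 in CX3CR1high, 4.03 and 5.77 in CX3CR1int, and 3.85 and 6.01 in CX3CR1low samples. The log2 of the summed signal of the 9 neutrophil markers lay between 7.49 and 7.94 over the 6 samples. Their mean log2 signal, 4.13 to 4.52, lay near the dim level, so the sum says little about neutrophils. All values are log2 signals of amplified RNA, compared between samples for the same probe set and never between genes. In such bulk samples, fewer cells of a type and less RNA per cell cannot be told apart.

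**Figure D1:**
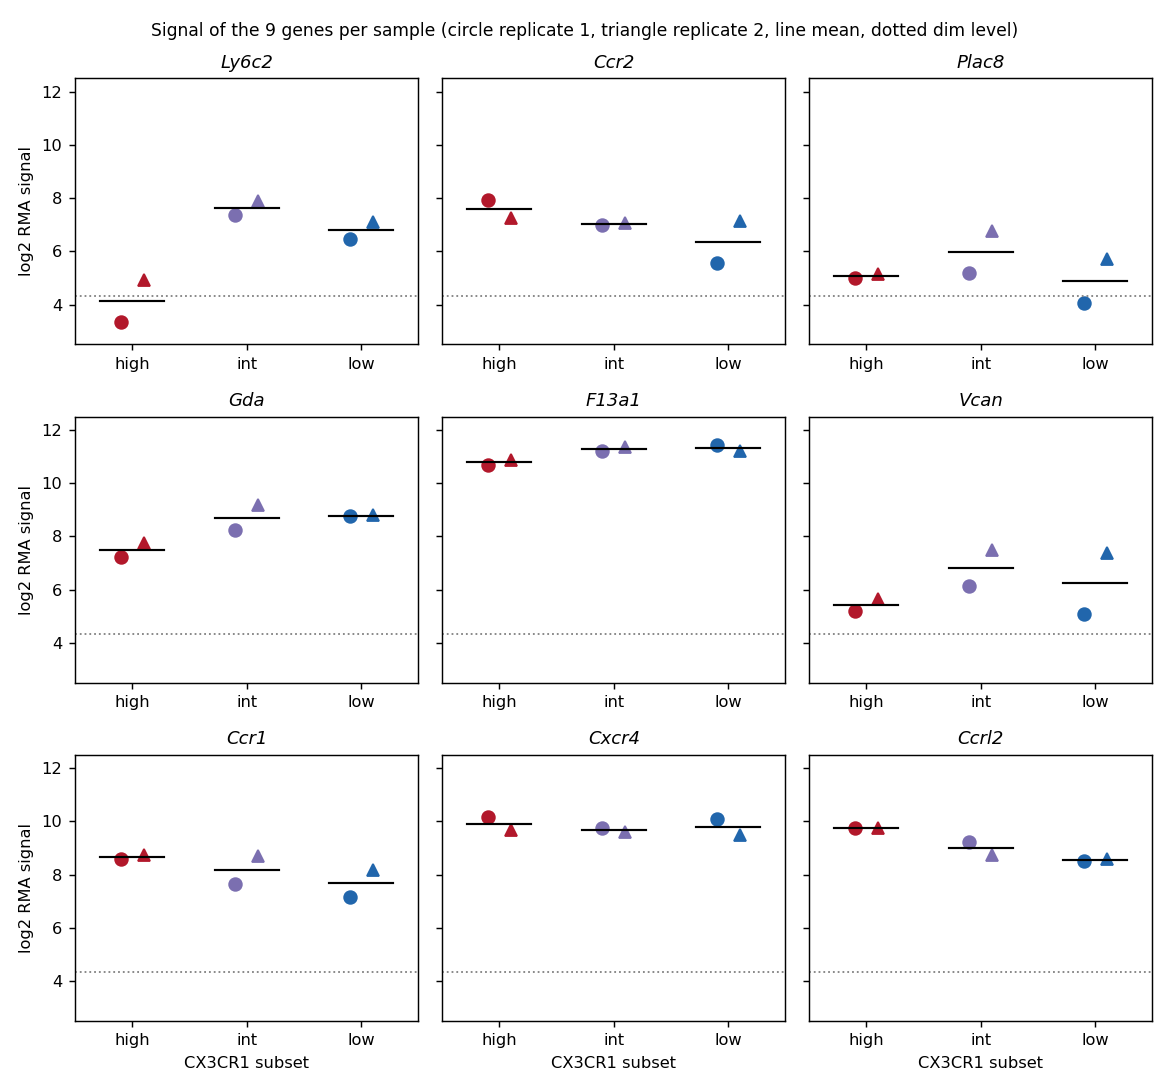
Log2 RMA signal (vertical axis) of each of the 9 genes in the samples of the CX3CR1high, CX3CR1int and CX3CR1low subsets (horizontal axis). Circles are replicate 1, triangles replicate 2, black lines the mean of a subset and the dotted line the dim level of 4.335. Ly6c2, at 3.36 and 4.92, has its lowest values in the CX3CR1high samples, and Ccrl2, at 9.74 in both, its highest.

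Between CX3CR1high and CX3CR1low cells, the monocyte genes went different ways. Ccrl2 was called higher, Ly6c2, Gda and F13a1 had lower signals in both CX3CR1high samples than in either CX3CR1low sample, and Ccr2 and Ccr1 had higher ones. A gene is counted as called here at an adjusted p below 0.05 in limma, with Benjamini-Hochberg adjustment over all 15529 genes tested. That held for 1 of the 9 genes, Ccrl2, while 0.399% of all genes tested were called, 0.213% as higher and 0.187% as lower. The 2 subsets did not overlap for 6 of the 9 genes, 3 higher and 3 lower, against 38.3% of all genes tested, 19.8% higher and 18.4% lower. An unadjusted p below 0.05 in limma was reached by the same 6 genes and by 9.65% of all genes tested. With 2 samples a subset, no exact permutation test of a single gene can go below p = 0.333. In this comparison 5 of the 9 genes had the higher mean in CX3CR1high cells and 4 the lower, with a median log2 difference of 0.135, against 0.005 over all genes tested.

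Between CX3CR1high and CX3CR1int cells, 1 of the 9 genes was called, Ly6c2, which fell, while 0.142% of all genes tested were called, 0.0773% as higher and 0.0644% as lower. With the replicate number as a block in the model it was again 1 of the 9 genes, Ly6c2, against 0.303% of all genes tested. An unadjusted p below 0.05 was reached by 4 of the 9 genes, Ly6c2, Gda, F13a1 and Ccrl2, and by 7.89% of all genes tested. The 2 subsets did not overlap for 7 of the 9 genes, 2 higher and 5 lower, against 36.8% of all genes tested, 18.3% higher and 18.5% lower. The median log2 difference of the 9 genes was -0.50, against 0.0 over all genes tested. Between CX3CR1int and CX3CR1low cells, none of the 9 genes was called by limma, and 0.00644% of all genes tested were. At an unadjusted p below 0.05 that comparison held 1 of the 9 genes, Ccrl2, against 4.89% of all genes tested. The CX3CR1int samples lay apart from the CX3CR1low samples for 2 of the 9 genes, Ly6c2 and Ccrl2, both higher in CX3CR1int, against 31.4% of all genes. The 3 comparisons share their samples and are not independent.

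**Figure D2:**
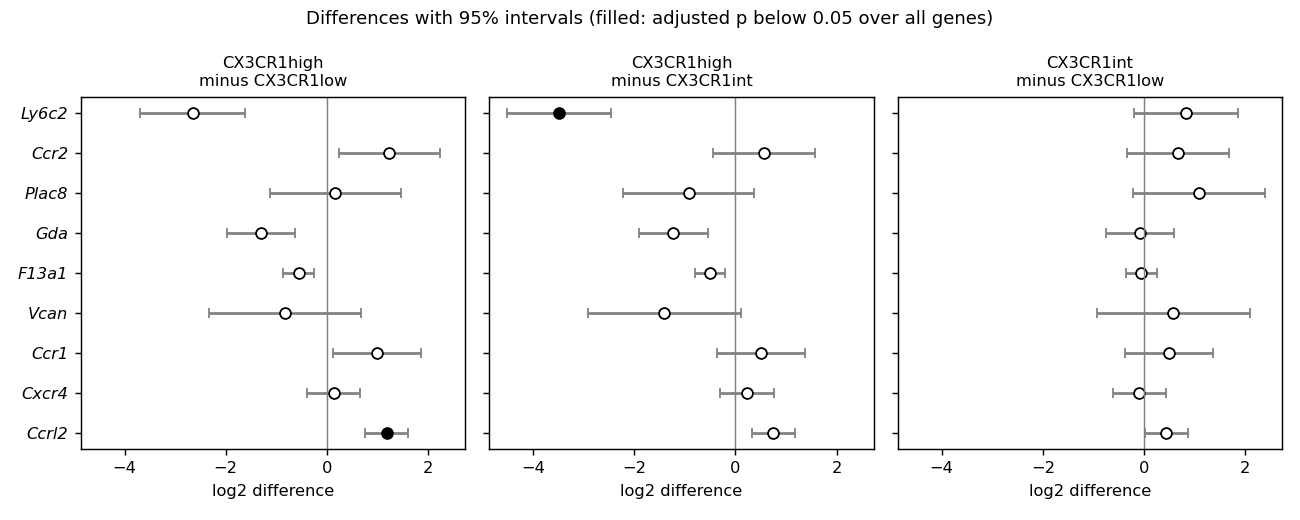
Log2 difference in signal (horizontal axis) of the 9 genes (vertical axis) in the 3 comparisons of subsets, with 95% intervals of the limma fit. Filled points have an adjusted p below 0.05 over all genes tested. Filled points are Ccrl2, at 1.19 for CX3CR1high minus CX3CR1low, and Ly6c2, at -3.49 for CX3CR1high minus CX3CR1int.

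Ly6c2 encodes one of the 2 surface proteins that antibodies against Ly6C detect, small proteins anchored in the outer membrane by a lipid. Its log2 signal was 3.36 and 4.92 in CX3CR1high samples, 7.35 and 7.90 in CX3CR1int samples, and 6.48 and 7.11 in CX3CR1low samples. The subsets did not overlap, with CX3CR1int cells at the top and CX3CR1high cells at the bottom, and replicate 2 was the higher sample in every subset. The mean was 4.14 ± 1.10 in CX3CR1high, 7.63 ± 0.39 in CX3CR1int and 6.80 ± 0.45 in CX3CR1low cells (SD, n = 2 each).

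Against CX3CR1int cells, Ly6c2 fell in CX3CR1high cells by 3.49 on the log2 scale (SE 0.454, 95% interval -4.52 to -2.45, limma adjusted p = 0.0421). The CX3CR1high mean lay below the dim level, and with the dim sample set to that level the change amounts to at least 7.99-fold lower. Against CX3CR1low cells, Ly6c2 was 2.66 lower in CX3CR1high cells, at least 4.49-fold, and just missed the threshold (limma adjusted p = 0.0586). It passed with the replicate number as a block in the model (adjusted p = 0.00484). The difference was -3.12 between the replicates 1 and -2.19 between the replicates 2. CX3CR1int and CX3CR1low cells differed by 0.83 in Ly6c2, with an interval from -0.20 to 1.86 (adjusted p = 0.996). The call against CX3CR1int cells ended without the CX3CR1high replicate 1 (adjusted p = 0.264), either CX3CR1int replicate (0.191 and 0.276) or either CX3CR1low replicate (0.0532 and 0.0523). Leaving out the CX3CR1high replicate 2 kept it (adjusted p = 0.0250).

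Its near-identical neighbour Ly6c1, the other source of the Ly6C antigen and a gene best known from endothelial cells and lymphocytes, was dim in all 6 samples. Ly6c1 was at 3.01 and 2.39 in CX3CR1high, 2.57 and 2.53 in CX3CR1int, and 2.63 and 2.19 in CX3CR1low samples. Its signal thus showed none of the spread of Ly6c2. How far probes of one gene catch RNA of the other was not tested.

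The promoter windows of Ly6c2 and its neighbour are shown because they carry similar sequence, and that of Gda because it, too, was called lower in CX3CR1high cells in the fit with the replicate block. They are from RefSeq on GRCm38.p6, each cover 300 bases around an annotated transcript start, and all lie on the minus strand. The table holds a window for all 9 genes. Capitals mark matches to 4 motifs searched on both strands, GAGGAAGT for the myeloid factor PU.1, TTGCNNAA for C/EBP factors, TGANTCA for AP-1 and CCACACCC for KLF factors.
Ly6c2, chr15:75111922-75112221: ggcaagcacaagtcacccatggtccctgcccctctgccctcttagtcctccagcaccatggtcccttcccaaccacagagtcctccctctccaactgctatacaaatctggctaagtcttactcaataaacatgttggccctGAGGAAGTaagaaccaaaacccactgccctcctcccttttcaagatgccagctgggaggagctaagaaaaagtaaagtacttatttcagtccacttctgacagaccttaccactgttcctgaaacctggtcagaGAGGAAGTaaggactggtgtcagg
Ly6c1, chr15:75048788-75049087: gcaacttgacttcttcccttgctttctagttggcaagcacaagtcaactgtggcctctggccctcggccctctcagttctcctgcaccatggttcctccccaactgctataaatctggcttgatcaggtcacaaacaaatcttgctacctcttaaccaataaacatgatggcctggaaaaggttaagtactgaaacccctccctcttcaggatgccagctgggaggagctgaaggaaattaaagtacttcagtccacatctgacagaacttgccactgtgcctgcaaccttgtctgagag
Gda, chr19:21472612-21472911: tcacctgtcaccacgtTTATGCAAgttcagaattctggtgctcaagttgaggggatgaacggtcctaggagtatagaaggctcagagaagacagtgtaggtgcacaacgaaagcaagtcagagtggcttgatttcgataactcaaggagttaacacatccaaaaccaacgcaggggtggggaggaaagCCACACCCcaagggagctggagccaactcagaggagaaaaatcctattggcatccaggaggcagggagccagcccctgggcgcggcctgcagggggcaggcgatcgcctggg

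The Ly6c2 window held the PU.1 letters at 2 places, at positions -108 to -101 and 26 to 33, where 0 is the first base of the transcript. Of all 32851 windows, 3.2% held them at least once and 0.0609% at 2 or more places. The displayed Ly6c1 window held no full match. That of a further annotated start of the gene held the PU.1 letters once, at -127 to -120. The displayed Ly6c1 window ends inside these same letters, so its count depends on where the window was cut. A local alignment of the displayed Ly6c2 and Ly6c1 windows covered 286 columns with 74.8% identical bases. The Gda window held the C/EBP letters at -234 to -227 and the KLF letters at -62 to -55, which 10.8% and 3.56% of all windows hold. These matches describe letters only.

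Gda encodes guanine deaminase, which turns guanine into xanthine. Its log2 signal was 7.22 and 7.74 in CX3CR1high samples, 8.25 and 9.16 in CX3CR1int samples, and 8.76 and 8.80 in CX3CR1low samples. Both CX3CR1high samples lay below all others, while CX3CR1int and CX3CR1low samples overlapped. Gda was 1.30 lower in CX3CR1high than in CX3CR1low cells (SE 0.295, 95% interval -1.97 to -0.63, limma adjusted p = 0.161). With the replicate block it was called lower (adjusted p = 0.0337), which made 3 of the 9 genes called in that fit, Ly6c2, Gda and Ccrl2, against 0.992% of all genes tested. Of all genes, 0.489% were called higher and 0.502% lower in it. Against CX3CR1int cells the difference was -1.23 (adjusted p = 0.267, and 0.0771 with the block), and between CX3CR1int and CX3CR1low cells it was -0.08.

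Of 11 tested genes on a purine salvage list, which also holds genes of purine breakdown, limma called none between any of the subsets. At an unadjusted p below 0.05 were 2, 2 and 0 of them for CX3CR1high against CX3CR1low, CX3CR1high against CX3CR1int, and CX3CR1int against CX3CR1low cells. Xdh, which oxidises the xanthine that guanine deaminase makes, was at 6.69 and 7.32 in CX3CR1high, 7.60 and 8.04 in CX3CR1int, and 7.97 and 8.02 in CX3CR1low samples. Its difference between CX3CR1high and CX3CR1low cells was -0.99 (adjusted p = 0.196), with no overlap. Samhd1, which breaks down nucleotides for DNA, was 0.66 lower in the same comparison (adjusted p = 0.376).

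F13a1 encodes the A subunit of clotting factor XIII, an enzyme that links fibrin strands and is made by monocytes and by macrophages of connective tissue. Its log2 signal was 10.70 and 10.86 in CX3CR1high samples, 11.21 and 11.35 in CX3CR1int samples, and 11.45 and 11.22 in CX3CR1low samples. As for Gda, both CX3CR1high samples lay below the others, and CX3CR1int and CX3CR1low samples overlapped. The difference between CX3CR1high and CX3CR1low cells was -0.56 (SE 0.134, 95% interval -0.86 to -0.25, limma adjusted p = 0.181), a 1.47-fold lower signal. That between CX3CR1high and CX3CR1int cells was -0.50 (adjusted p = 0.353). Of 11 tested clotting and fibrinolysis genes limma called none in any comparison, and 2, 1 and 1 had an unadjusted p below 0.05. The transglutaminase gene Tgm2, a relative of F13a1, was 0.96 higher in CX3CR1high than in CX3CR1low cells (adjusted p = 0.177), and Serpinb2, an inhibitor of plasminogen activators, was 0.60 lower (adjusted p = 0.514).

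Genes of resident perivascular macrophages, cells known to make F13a1, were examined beside it. Of 7 tested, 6 were lower and 1 higher in CX3CR1high against CX3CR1low cells, and against CX3CR1int cells all 7 were lower. The higher gene was Lyve1, with means of 9.965 in CX3CR1high, 10.03 in CX3CR1int and 9.765 in CX3CR1low cells. Timd4 was nearly level, with means of 7.03, 7.08 and 7.10 in the same order. Cd209g, a lectin gene, was called lower both times (limma adjusted p = 0.0103 and 0.0474). The lectin Cd209g was at 4.66 and 5.02 in CX3CR1high, 6.97 and 7.53 in CX3CR1int, and 8.69 and 7.66 in CX3CR1low samples. Cd163, the receptor of haemoglobin bound to haptoglobin, was 0.91 lower in CX3CR1high than in CX3CR1low cells (adjusted p = 0.0829, and 0.0305 with the replicate block). The log2 of the summed signal of this list was 12.68 and 12.93 in CX3CR1high, 13.21 and 13.38 in CX3CR1int, and 13.41 and 13.26 in CX3CR1low samples. The part of these cells in the levels of F13a1 and Gda was not tested.

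Plac8, a small cysteine-rich protein of immune cells, and Vcan, the matrix proteoglycan versican that monocytes and fibroblasts make, differed widely between the replicates of the CX3CR1int and of the CX3CR1low cells. Plac8 was at 4.98 and 5.14 in CX3CR1high, 5.19 and 6.78 in CX3CR1int, and 4.07 and 5.72 in CX3CR1low samples. Its difference between CX3CR1high and CX3CR1low cells was 0.91 between replicates 1 and -0.58 between replicates 2. Against CX3CR1int cells Plac8 was 0.93 lower in CX3CR1high cells (95% interval -2.22 to 0.37, limma adjusted p = 0.753).

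Vcan was at 5.20 and 5.63 in CX3CR1high, 6.15 and 7.49 in CX3CR1int, and 5.09 and 7.39 in CX3CR1low samples. The lowest CX3CR1int sample lay above both CX3CR1high samples, whereas the CX3CR1low samples spanned nearly the whole range. Vcan differed by -1.41 between CX3CR1high and CX3CR1int cells (95% interval -2.91 to 0.10, adjusted p = 0.646) and by -0.83 between CX3CR1high and CX3CR1low cells (adjusted p = 0.770). Within replicate numbers, the difference of Vcan between CX3CR1high and CX3CR1low cells was 0.11 and -1.76. Of 15 tested partners of versican and hyaluronan limma called none in any comparison, and 3, 1 and 4 had an unadjusted p below 0.05. Tnfaip6, a protein that binds hyaluronan, was 1.26 lower in CX3CR1high than in CX3CR1low cells (adjusted p = 0.0915) and was called with the replicate block (0.0236). The aggrecanase gene Adamts4 was 0.60 lower (adjusted p = 0.412).

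The summed signal of markers of fibroblasts, which also make versican, was highest in the CX3CR1low replicate 2. The log2 of the summed signal of 6 of 6 fibroblast markers was 10.78 and 10.66 in CX3CR1high, 11.25 and 11.16 in CX3CR1int, and 11.52 and 12.16 in CX3CR1low samples. In CX3CR1high against CX3CR1low cells 5 of them were lower and Pdgfra was higher, with Col1a1 at -1.07 (adjusted p = 0.0716) and Dcn at -1.24 (adjusted p = 0.0782), and 4 were called with the replicate block. Of the 5 dermal papilla markers, Sox2 was dim in every sample, and limma called none, with 0 at an unadjusted p below 0.05. The part of fibroblasts in the level of Vcan was not tested.

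**Figure D3:**
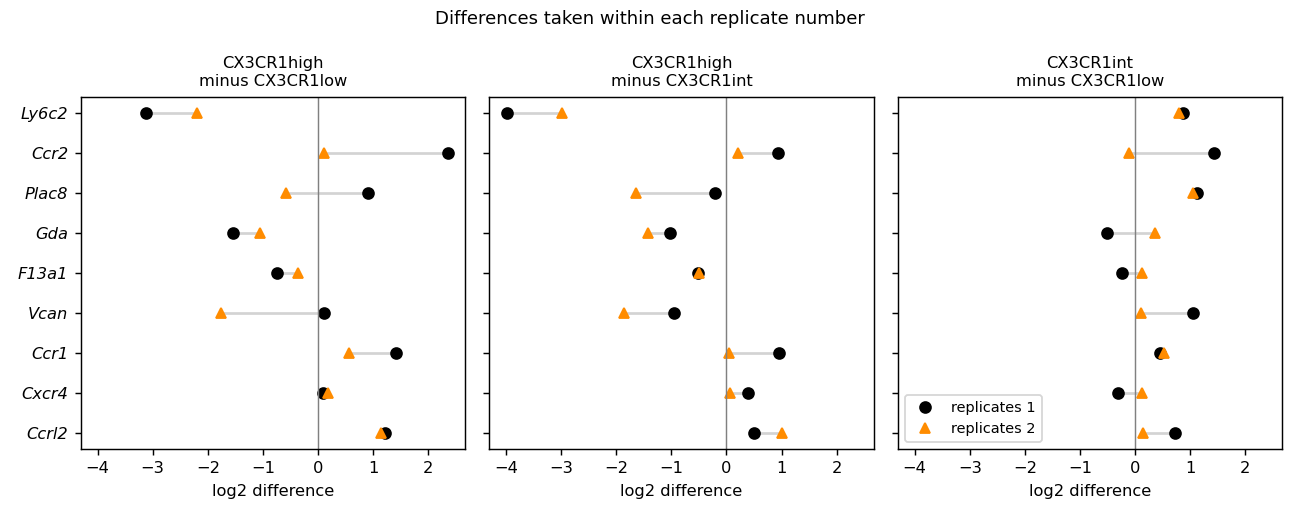
Log2 difference between subsets (horizontal axis) taken within replicates 1 (circles) and within replicates 2 (triangles) for the 9 genes (vertical axis), in the 3 comparisons. For CX3CR1high minus either other subset, Ly6c2, Gda and F13a1 lie below 0 and Ccrl2, Ccr2, Ccr1 and Cxcr4 above 0 in both replicate numbers. Plac8 (0.91 and -0.58) and Vcan (0.11 and -1.76) lie on both sides of 0 for CX3CR1high minus CX3CR1low. There, 7 of the 9 genes had the same sign in both replicate numbers, against 55.4% of all genes tested. For CX3CR1high minus CX3CR1int, 9 of the 9 did, against 54.9%.

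The 4 receptor genes had their highest means in the CX3CR1high cells. Ccrl2 encodes an atypical receptor that binds the attractant chemerin and presents it to other cells without the usual G protein signal. Its log2 signal was 9.74 and 9.74 in CX3CR1high samples, 9.24 and 8.74 in CX3CR1int samples, and 8.52 and 8.59 in CX3CR1low samples. The 3 subsets did not overlap and stood in the order of their CX3CR1 level. Ccrl2 rose in CX3CR1high against CX3CR1low cells by 1.19 (SE 0.189, 95% interval 0.76 to 1.61, limma adjusted p = 0.0434), 2.27-fold. Against CX3CR1int cells it was 0.75 higher (adjusted p = 0.299), and CX3CR1int cells were 0.44 above CX3CR1low cells (adjusted p = 0.996). The call ended without either CX3CR1high replicate (adjusted p = 0.275 and 0.266) or either CX3CR1low replicate (0.164 and 0.151). The difference itself was 1.15 without the CX3CR1low replicate 1 and 1.22 without the CX3CR1low replicate 2. It could not move without a CX3CR1high replicate, as both were at 9.74.

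Ccr2 encodes the receptor of Ccl2, Ccl7 and Ccl12, which monocytes need to leave the bone marrow. Its log2 signal was 7.92 and 7.26 in CX3CR1high samples, 6.99 and 7.05 in CX3CR1int samples, and 5.56 and 7.15 in CX3CR1low samples. The CX3CR1high samples lay above all others, and 1 sample, the CX3CR1low replicate 1, lay far below the rest. The difference between CX3CR1high and CX3CR1low cells was 1.24 (SE 0.444, 95% interval 0.23 to 2.24, limma adjusted p = 0.401). It was 2.36 between replicates 1 and 0.11 between replicates 2, and 0.44 without the CX3CR1low replicate 1. Against CX3CR1int cells Ccr2 was 0.57 higher (95% interval -0.44 to 1.58, adjusted p = 0.824).

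Ccr1, a receptor of Ccl3, Ccl5 and related chemokines, was at 8.59 and 8.73 in CX3CR1high, 7.63 and 8.69 in CX3CR1int, and 7.17 and 8.17 in CX3CR1low samples. Both CX3CR1high samples were above both CX3CR1low samples, and the CX3CR1int replicate 2 reached into their range. Its difference between CX3CR1high and CX3CR1low cells was 0.99 (95% interval 0.12 to 1.86, adjusted p = 0.449, and 0.125 with the replicate block). Cxcr4, the receptor of Cxcl12 that holds cells in the marrow, was at 10.16 and 9.66 in CX3CR1high, 9.76 and 9.60 in CX3CR1int, and 10.07 and 9.48 in CX3CR1low samples. All 3 subsets overlapped for Cxcr4, with a difference of 0.14 between CX3CR1high and CX3CR1low cells and an interval from -0.39 to 0.66 (adjusted p = 0.913).

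On the chromosome, Ccr1 and Ccr2 have Ccr1l1 and Ccr3 between them by the RefSeq annotation of GRCm38.p6. Ccr3, an eosinophil receptor given here as their neighbour, stayed near the dim level, at 4.23 and 4.98 in CX3CR1high, 4.21 and 4.49 in CX3CR1int, and 4.53 and 3.75 in CX3CR1low samples. Of 14 other chemokine receptor genes tested, only the sorting gene Cx3cr1 was called higher in CX3CR1high cells, against either other subset. Ccr7, which leads dendritic cells to lymph nodes, was at 7.29 and 6.72 in CX3CR1high, 6.83 and 6.73 in CX3CR1int, and 5.74 and 5.64 in CX3CR1low samples. It was 1.32 higher in CX3CR1high than in CX3CR1low cells (limma adjusted p = 0.0510, and 0.0239 with the replicate block). Like Ccrl2, Ccr2 and Ccr1, it had its middle mean in CX3CR1int cells. Cxcr2 was 0.42 higher (adjusted p = 0.487).

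Dendritic cells, which also use Ccr2 and Ccr7, were checked with 7 markers, Ccr7 among them. Of the 6 tested, 4 were higher and 2 lower in CX3CR1high against CX3CR1low cells, with none called by limma and 3 at an unadjusted p below 0.05. Their summed signal was 8.68 and 8.66 in CX3CR1high, 8.91 and 8.82 in CX3CR1int, and 8.47 and 9.33 in CX3CR1low samples on the log2 scale, and Dpp4 was dim in all. Flt3, a growth factor receptor of dendritic cells, was at 5.07 and 4.67 in CX3CR1high, 5.63 and 4.97 in CX3CR1int, and 4.57 and 4.32 in CX3CR1low samples. The 2 lower markers were Zbtb46 and Cd24a. Zbtb46 had means of 5.495 in CX3CR1high and 5.92 in CX3CR1low cells, and Cd24a of 7.01 and 8.045. In the CX3CR1low replicate 2, where the sum was highest, Cd24a was at 8.79. The Langerhans cell lectin gene Cd207 was 1.22 higher in CX3CR1high than in CX3CR1low cells (adjusted p = 0.181), and Epcam, the other marker of these cells, was 0.16 lower (adjusted p = 0.901). The part of these cells in the levels of the receptors was not tested.

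Among 9 tested ligand genes of the 4 receptors, limma called none in any comparison, and 3, 4 and 0 had an unadjusted p below 0.05. Ccl2, a ligand of CCR2 singled out after its values were seen, was at 12.64 and 12.66 in CX3CR1high, 12.69 and 12.73 in CX3CR1int, and 12.68 and 12.66 in CX3CR1low samples. Ccl5, a ligand of CCR1, was at 10.73 and 11.07 in CX3CR1high, 9.60 and 10.33 in CX3CR1int, and 9.0 and 10.23 in CX3CR1low samples. It was 1.29 higher in CX3CR1high than in CX3CR1low cells (adjusted p = 0.277) and was called with the replicate block (0.0260). Ccl3 was 0.53 higher (adjusted p = 0.235). Ccl6, chosen after its values were seen, was 1.61 lower (adjusted p = 0.417) and was called lower with the block (0.00698), as it was against CX3CR1int cells (-1.45, adjusted p = 0.580, and 0.0254 with the block). The chemerin gene Rarres2 was not analysed here.

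Other genes known from classical monocytes went both ways in CX3CR1high cells, the larger number lower, without a call. Of 28 such genes 25 were tested, and limma called none in any comparison. Between CX3CR1high and CX3CR1low cells 9 were higher and 16 lower, and 10 had an unadjusted p below 0.05 (9.65% of all genes tested did). Of these 10, Itga4, Clec4e, Cd14, Trem3 and Cd93 were higher, and Ms4a4c, Ifitm6, Emb, Klf4 and Smpdl3a lower. The median log2 difference was -0.14, against 0.005 over all genes tested. Between CX3CR1high and CX3CR1int cells 8 were higher and 17 lower, 9 had an unadjusted p below 0.05, and the median was -0.245. Between CX3CR1int and CX3CR1low cells 14 were higher and 11 lower, 3 had an unadjusted p below 0.05, and the median was 0.13.

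Emb, which encodes the adhesion protein embigin, was at 9.09 and 9.22 in CX3CR1high, 9.94 and 10.19 in CX3CR1int, and 9.92 and 10.07 in CX3CR1low samples. The CX3CR1high samples lay apart below the others, by 0.84 against CX3CR1low (adjusted p = 0.0780) and 0.91 against CX3CR1int cells (0.0956). With the replicate block both were called (0.0319 and 0.0464). Cd93, a lectin-like receptor of monocytes, went the other way, with 8.46 and 8.42 in CX3CR1high, 8.04 and 7.17 in CX3CR1int, and 7.0 and 6.90 in CX3CR1low samples. It was 1.49 higher in CX3CR1high than in CX3CR1low cells (adjusted p = 0.0678, and 0.0260 with the block). Ifitm6, chosen after its values were seen as the third gene that the block called, was 1.08 lower (adjusted p = 0.398, and 0.0320 with the block).

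**Figure D4:**
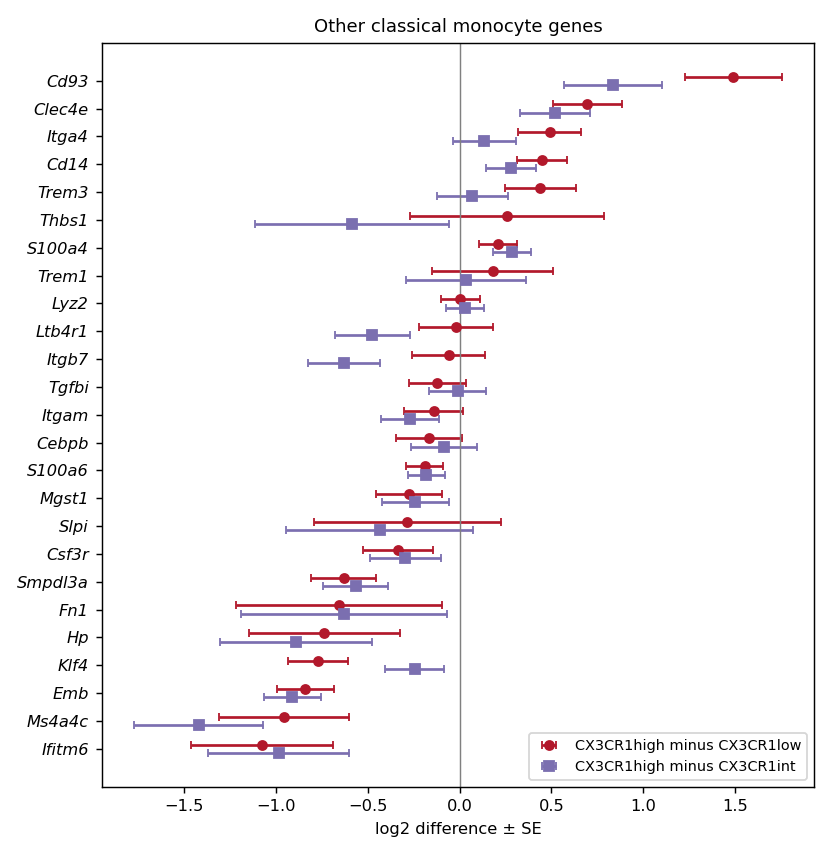
Log2 difference ± SE (horizontal axis) of the 25 tested other classical monocyte genes (vertical axis), for CX3CR1high minus CX3CR1low (circles) and CX3CR1high minus CX3CR1int cells (squares). Cd93, at 1.49, is the highest and Ifitm6, at -1.08, the lowest circle.

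Of 12 tested genes of patrolling monocytes, limma called none in any comparison. In CX3CR1high against CX3CR1low cells 8 were higher and 4 lower, 2 had an unadjusted p below 0.05, and the median was 0.162. Itgal, an integrin chain, was 0.52 higher (adjusted p = 0.374), and Adgre4, an adhesion receptor, 0.26 lower (adjusted p = 0.885). Of 7 other tested genes of the Ly6 family limma called none in any comparison, and 3, 1 and 1 had an unadjusted p below 0.05. Ly6d, a gene of keratinocytes and lymphocytes, was 1.03 lower in CX3CR1high than in CX3CR1low cells (adjusted p = 0.229), and Ly6e, which is widely expressed, 0.53 lower (adjusted p = 0.292). Neither had its highest mean in the CX3CR1int cells as Ly6c2 did.

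Over the 6 samples, the genes outside the list with the pattern most like that of Ly6c2, by Pearson correlation among 1512 tested genes with a range of at least 1 on the log2 scale, were Grk5 (0.976), H2-T23 (0.972), Serpinb1a (0.969), Slc28a2 (0.968) and H2-Q10 (0.967). Grk5 was at 5.86 and 6.20 in CX3CR1high, 7.19 and 7.11 in CX3CR1int, and 6.6 and 6.95 in CX3CR1low samples. With Ccr2 these were Traf1 (0.956), Malt1 (0.947), Traf3ip2 (0.944), AI839979 (0.932) and 4833407H14Rik (0.930). Traf1 was at 8.31 and 8.06 in CX3CR1high, 7.72 and 7.61 in CX3CR1int, and 7.12 and 7.88 in CX3CR1low samples. These values describe 6 samples, which may share litters across subsets.

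Markers of further skin cells differed between the subsets that Ly6c2 and Gda separated. Of 5 tested mast cell markers all were lower in CX3CR1high against CX3CR1low cells and 3 were called, Cpa3, Mcpt4 and Cma1. Cpa3, a protease gene whose CX3CR1high mean of 4.07 lay under the dim level, was at least 8.60-fold lower (adjusted p = 0.00512), and Mcpt4 and Cma1 differed by -2.26 and -1.87. Against CX3CR1int cells all 5 were lower, Cpa3 was called, at least 4.36-fold lower (adjusted p = 0.0405), and Mcpt4 was called with the replicate block alone (-1.55, adjusted p = 0.0956, and 0.0254 with the block). Ms4a2, a further mast cell marker, was dim in every sample. The summed mast cell signal was 7.35 and 7.22 in CX3CR1high, 8.60 and 8.42 in CX3CR1int, and 9.44 and 8.92 in CX3CR1low samples on the log2 scale. For 5 keratinocyte markers it was 9.68 and 9.58 in CX3CR1high, 9.98 and 9.91 in CX3CR1int, and 10.40 and 10.92 in CX3CR1low samples. Krt10 was called lower in CX3CR1high than in CX3CR1low cells (-1.46, limma adjusted p = 0.0439). Both sums were highest in the CX3CR1low samples. Gda and F13a1 also had their highest means in CX3CR1low cells, at 8.78 and 11.335, close to 8.705 and 11.28 in CX3CR1int cells. Ly6c2 had its highest mean in CX3CR1int cells. For 6 endothelial markers the sum was 7.75 and 7.52 in CX3CR1high, 7.63 and 7.97 in CX3CR1int, and 8.10 and 8.20 in CX3CR1low samples. Cdh5 was 1.27 lower in CX3CR1high than in CX3CR1low cells (limma adjusted p = 0.177). The summed T and NK cell markers lay between 6.98 and 7.35 and the B cell markers between 5.96 and 6.49 over the 6 samples. Of these markers 4 of 6 and 1 of 3 were tested, with none called by limma and 0 at an unadjusted p below 0.05. The mean log2 signals of the lists, 4.25 to 4.45 and 4.01 to 4.46, lay near the dim level, so the sums say little. Cd3g, Gzma and Ms4a1 among the markers were dim in every sample. The part of these cells in the levels of the 9 genes was not tested.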

How the data were processed

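The values that the authors deposited are log2 signals for each probe set, and were not changed. The submitters' processing notes name RMA and Affymetrix Expression Console 1.4, and the labels' protocols name an amplification kit for whole transcripts, whose yield can differ between genes. Of 34390 probe sets, the 23521 with exactly 1 gene symbol were kept, and the brightest by mean over the 6 samples stood for a gene. Genes under the 30th percentile of mean signal, 4.335, were left out as dim, and where the mean of a subset lay below that level a fold is a lower bound, with dim samples set to the level. Differences were fitted in R 4.3.3 with limma 3.58.1, as 3 subset means with an intensity trend, and p-values were adjusted by Benjamini-Hochberg over the 15529 tested genes, with 3 residual and 5.77 prior degrees of freedom. The fit was tested on simulated data. The members, the gene lists and the rule for naming genes (called, or the 2 smallest p of a list, or the 5 highest correlations) were chosen with earlier results of these data known. Replicates are pools from separate litters, and the 2 arrays a subset limit the precision.

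Samples with the same replicate number deviated together from their subset means, with correlations across genes of 0.136, 0.178 and 0.146 for the 3 pairs of subsets. Without Xist, Tsix and genes of the Y chromosome they were 0.113, 0.158 and 0.123. Xist, a transcript of female cells, was at 7.97, 7.61 and 7.39 in replicates 1 of CX3CR1high, CX3CR1int and CX3CR1low cells and at 11.39, 10.99 and 11.24 in replicates 2. Eif2s3y, a gene of the Y chromosome, was at 7.76, 7.86 and 8.27 against 3.57, 3.72 and 2.99. The replicate number thus went with sex-linked signal, and the block cannot tell litter from the sex of the mice pooled. The replicate block is therefore given beside the genes named here whose call it changes. Medians of the 6 arrays lay between 4.84 and 4.94, and the correlation across genes was 0.982 to 0.984 within and 0.975 to 0.985 between subsets. Alternatives changed the filter, the probe sets, the normalization, the trend, the samples in the fit and the block, and left out each sample. No value column was left unused.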

Additional observations from a re-analysis of the deposited data

How the results depend on the processing

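With the replicate block, the genes called were 154 for CX3CR1high against CX3CR1low, 47 for CX3CR1high against CX3CR1int and 0 for CX3CR1int against CX3CR1low cells, against 62, 22 and 1 without it. Of the 9 members it called 3, 1 and 0, against 1, 1 and 0, and of the other listed genes 8, 3 and 0, against 1, 1 and 0. For the 3 comparisons in that order, the genes called were 18, 0 and 0 with every probe set on its own, 26, 0 and 0 with no filter, 54, 4 and 0 with no intensity trend, 55, 2 and 1 when quantile-normalized again, and 39, 14 and 0 with only the 2 subsets compared. In the first 4 of these settings no member was called in any comparison (adjusted p from 0.0524 to 0.0916 for Ccrl2 against CX3CR1low and from 0.0507 to 0.104 for Ly6c2 against CX3CR1int cells), and of the other listed genes 1, 0 and 0. With only the 2 subsets compared, Ccrl2 kept its call and Ly6c2 lost its own (members 1, 0 and 0, other listed genes 2, 1 and 0). With the filter at the 50th percentile, which leaves fewer genes to test, 76, 24 and 1 genes were called. The members called were 2, 1 and 0 and the other listed genes 2, 1 and 0. Against CX3CR1low cells the 2 members were Ccrl2 and Ly6c2 (limma adjusted p = 0.0336 and 0.0467). Without each sample in turn, the genes called ranged from 0 to 39, 0 to 17 and 0 to 0, the members called from 0 to 1, 0 to 1 and 0 to 0, and the other listed genes from 0 to 2, 0 to 1 and 0 to 0. A lone sample of a subset is then assumed to vary like the others.

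In all 13 alternatives, Ly6c2, Gda and F13a1 stayed lower and Ccrl2 and Ccr2 higher in CX3CR1high cells than in either other subset. Most of the alternatives cannot change a difference. Leaving out a sample cannot turn the sign where 2 subsets do not overlap, as for these genes. Their unchanged signs are therefore no check. The sign of a difference turned without single samples, never as a call. For CX3CR1high against CX3CR1low it ranged from -0.66 to 0.99 for Plac8, -1.98 to 0.32 for Vcan and -0.16 to 0.43 for Cxcr4. For CX3CR1high against CX3CR1int it ranged from -0.03 to 1.03 for Ccr1 and -0.02 to 0.48 for Cxcr4. For CX3CR1int against CX3CR1low it ranged from -0.13 to 1.46 for Ccr2, -0.53 to 0.38 for Gda, -0.17 to 0.06 for F13a1, -0.57 to 1.73 for Vcan, -0.04 to 1.02 for Ccr1 and -0.39 to 0.20 for Cxcr4. Why calls were lost was not tested.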
